A study of Mus musculus with 18 samples.

Results

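The words described here are the 8-mers built of adenine and thymine only, so that no cytosine, modified or not, lies in the word on either strand. They were taken by their letters alone from the deposited table of 8-mer z-scores. Of the 256 such words that exist, 254 had a z-score, out of 65530 8-mers in the table, and 16 of the 254 are palindromes that read alike on both strands. The table comes from protein binding microarrays, on which a protein is laid over many short double-stranded DNA probes and the fluorescence of each spot reports how much of it stayed bound. The proteins were the mouse DNA-binding domains of CREB1, of ATF1 and of JUND, each with a short native flank, made as GST fusions by transcription and translation in vitro. The data therefore describe isolated domains and not whole proteins in cells. Each domain was applied to DNA whose second strand had been synthesized with 5-hydroxymethylcytosine (5hmC), with 5-methylcytosine (5mC) or with cytosine (C), while the other strand carried plain cytosine throughout, so modified probes were modified on 1 strand. The 9 groups were CREB1, ATF1 and JUND on each of 5hmC, 5mC and C, with 2 arrays each and 18 arrays in all.

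CREB1, ATF1 and JUND are basic leucine zipper (bZIP) proteins: they bind DNA as pairs, and a basic helix of each partner reads a short half-site in the major groove. CREB1 and ATF1, close relatives that act in cyclic AMP signalling, are known for the cyclic AMP response element, whose half-sites read TGAC and GTCA, and JUND, of the AP-1 family, binds closely related elements. Words of adenine and thymine hold no such half-site, and every modified base lies outside them.

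The probes show what surrounded the words. Each of the 40330 probes had 35 variable bases, and 2236 of them (5.54%) held at least 1 of the words on the synthesized strand. A word was held by 13 to 22 probes, with a median of 17. There were 4374 pairs of a word and a probe, so words that overlap by a shift share probes and are not independent measurements. The sequences below are the synthesized strand read 5′ to 3′, from the deposited probe files, with the word in capitals. They are the probes with the highest or the lowest mean signal among those of words that the results turn on.
TATTATTA, highest: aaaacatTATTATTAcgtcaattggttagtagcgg
TATTATTA, lowest: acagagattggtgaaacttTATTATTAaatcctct
TATATTTA, highest: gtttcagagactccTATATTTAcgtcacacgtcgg
TTTAATTA, highest: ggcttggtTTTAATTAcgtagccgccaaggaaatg
AATATTTT, highest: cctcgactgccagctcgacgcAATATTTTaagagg
AAAAATAA, highest: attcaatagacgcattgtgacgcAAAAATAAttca
TTTTTAAA, highest: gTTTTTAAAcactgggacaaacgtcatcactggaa
TTTTTAAA, lowest: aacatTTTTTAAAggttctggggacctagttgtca
ATTAATTT, highest: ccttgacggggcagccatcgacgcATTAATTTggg
AATTTAAT, highest: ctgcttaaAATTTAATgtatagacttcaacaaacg
AATAAAAA, highest: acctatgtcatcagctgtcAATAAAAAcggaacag
TAAATTAA, highest: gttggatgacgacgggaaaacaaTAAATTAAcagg

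In the highest probes of TATTATTA, TATATTTA and TTTAATTA the final A of the word is the first base of ACGT, the centre of the cyclic AMP response element, and in the first pair of these the letters run on into GTCA. In the highest probe of AAAAATAA the letters before the word complete GCAA, the half-site of C/EBP proteins, another bZIP family. Half-sites were searched as TGAC and its reverse complement GTCA, as ACGT, and as GCAA with its reverse complement TTGC on the synthesized strand. This covers both strands, because TGAC pairs with GTCA, GCAA pairs with TTGC and ACGT is its own reverse complement, and ACGT and GTCA can overlap. At least 1 of them was found in 43.1% of the probes that held a word and in 47.1% of all probes. Among the 33 words that passed a test under the naming rule or led a group, the brightest probe had a half-site across the edge of the word for 11, a half-site elsewhere for 16 and none for 6. The dimmest probe had none for 26 of the 33 and one elsewhere for 7.

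The highest TATTATTA probe differed widely between kinds of DNA. Its signal, as a multiple of the median background-subtracted signal of the array, was 4.31 and 1.31 for CREB1 on 5hmC and 6.81 and 1.83 on 5mC, against 31.3 and 36.0 on C. ATF1 gave 2.70 and 2.02 on 5hmC and 1.49 and 2.22 on 5mC, against 19.2 and 17.3 on C. For both proteins every modified array lay below both unmodified ones. The lowest probe of the same word, with no half-site, gave 1.16 and -0.853 for CREB1 on 5hmC and 0.606 and 0.104 on 5mC, against 0.0738 and -0.00779 on C, where a value below 0 lies under the local background. The highest AATATTTT probe ran the other way for CREB1, with 19.3 and 14.7 on 5hmC and 51.5 and 13.4 on 5mC, against 4.10 and 5.58 on C. There both unmodified arrays lay below every modified one.

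The arrays differed in how far spots stood above background. The median signal was 1.55 to 3.50 times the median local background on the 6 5hmC arrays and 2.01 to 14.0 times on the 6 5mC arrays, against 2.12 to 5.36 times on the 6 C arrays. Replicate 2 of JUND on 5hmC stood apart, with 22.5% of the word-holding probes at or below a background-subtracted signal of 50. Over the 254 words the 2 arrays of a group correlated with r from 0.290 for JUND on 5hmC to 0.760 for ATF1 on 5mC, a description across words that share probes. The 2 JUND 5hmC arrays differed by a median of 1.41 score units per word in 1 direction, where the other groups differed by -0.483 to 0.785. On every array the scores followed the median signal of the probes that hold the word on the synthesized strand (Spearman's rho 0.931 to 0.969), and not that of probes holding its reverse complement (-0.263 to 0.222). Each word is therefore spelled along the strand that carries the modification.

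Words of adenine and thymine scored above the middle of most arrays, with few high scores. The median score of all tested 8-mers was 0.00438 to 0.0110 on the 18 arrays. On 5hmC the median over the words was 0.986 and 0.745 for CREB1, 1.39 and 1.32 for ATF1 and 1.71 and 0.192 for JUND. On 5mC it was 0.402 and -0.398 for CREB1, 0.127 and 0.212 for ATF1 and -0.0746 and 0.413 for JUND. On C it was 0.322 and 0.0545 for CREB1, 0.507 and 0.547 for ATF1 and 0.895 and 0.510 for JUND. The words thus lay above the middle of all 6 5hmC arrays, of 4 of the 6 5mC arrays and of all 6 C arrays. Both 5hmC arrays of CREB1 and of ATF1 lay above the 5mC and C arrays of the same protein, and the 2 JUND 5hmC arrays lay on either side of its C arrays. The mean over 18 arrays was above 0 for 216 of the 254 words and ran from -0.577 for TTTAATTT to 2.46 for AAAAATAA. A score above 0 on all 18 arrays was found for 20 words (7.87%), against 6.05% of all tested 8-mers, and for no word was every score below 0.

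High scores were rare. Group means of at least 4 were found only for JUND, and there about as often as among all tested 8-mers. Of the 4572 scores of the words, 25 reached 4 (0.547%), against 1.86% of the scores of all tested 8-mers, and they fell on 19 words. A group mean of at least 4 was reached by 2 words for JUND on 5mC, as by 0.759% of all tested 8-mers, and by 2 words for JUND on C, as by 0.866% of all. No word reached it for CREB1 on 5hmC, 5mC or C (1.65%, 2.06% and 5.09% of all), for ATF1 on 5hmC, 5mC or C (0.450%, 1.12% and 2.87%) or for JUND on 5hmC (0.648%). On 1 array alone the count was 7 without replicate 1 and 2 without replicate 2 for JUND on 5mC, and 4 without either for JUND on C. It was 4 for JUND on 5hmC without replicate 2, 2 for CREB1 on 5hmC without replicate 2 and 2 for ATF1 on 5hmC without replicate 1.

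TAAATTAA scored 2.48 and 1.27 on 5hmC and 4.20 and 5.15 on 5mC for JUND, against 6.54 and 2.01 on C, the highest score of any of the words. AAAAATAA scored 3.53 and 0.943 on 5hmC and 4.60 and 5.04 on 5mC for JUND, against 3.00 and 4.13 on C. AATAAAAA, which led JUND on C with TAAATTAA, scored 3.17 and 1.31 on 5hmC and 1.64 and 2.48 on 5mC, against 3.12 and 5.06 on C. The 5hmC and C arrays of JUND overlapped in all 3 words. The 5mC arrays lay above both C arrays for AAAAATAA and below both for AATAAAAA, and overlapped with them for TAAATTAA.

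The leading words of CREB1 and ATF1 scored lower. CREB1 on 5hmC was led by AAAATAAT (4.50 and 2.03) and AATATTTT (3.69 and 2.51), and on 5mC by AATTTAAA (2.45 and 1.23) and TATAAATA (1.84 and 1.66), against TAATAAAT (2.89 and 1.91) and TAATAAAA (1.94 and 2.51) on C. ATF1 on 5hmC was led by AAAAATAA (3.19 and 4.25) and TTTAATAA (3.37 and 3.68), and on 5mC by ATAATAAA (2.41 and 2.88) and ATTAATAT (2.01 and 2.77), against TAATATTT (2.83 and 2.41) and TAATAAAA (3.19 and 1.75) on C. JUND on 5hmC was led by TAATAAAA (4.02 and 2.31) and AATTTAAA (4.34 and 1.68). No word led all groups, and TAATAAAA led 3 of the 9.

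Words of adenine and thymine scored higher on 5hmC than on C when the 3 proteins were averaged. In limma's fit over all 65121 tested 8-mers, 29 of the 254 words (11.4%) rose at an adjusted p under 0.05, where 2.07% of all tested 8-mers rose. None fell, where 8.62% of all fell, and 1 word was lower at an unadjusted p under 0.05. The p-values measure only the spread between arrays, which may be technical. The median change was 0.624 score units over the words, against -0.0184 over all tested 8-mers, and it was above 0 for 225 of the 254 words. Among the 29 the change ran from 0.868 to 1.83, and it was above 0 in CREB1 and in ATF1 for all 29 and in JUND for 28. These signs follow in part from picking the words by the average of the same 3 changes. All 6 5hmC arrays lay above all 6 C arrays for 7 of the 254 words, against 0.525% of all tested 8-mers.

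The count of 29 depended on single arrays and on the scale. Without JUND 5hmC replicate 1 the median change over the words was 0.328, and 19 words rose and 2 fell. Without JUND 5hmC replicate 2 the median was 0.852. The count was 18 without CREB1 C replicate 1, 11 without CREB1 C replicate 2, 11 without CREB1 5hmC replicate 1, 19 without ATF1 C replicate 1, 18 without ATF1 C replicate 2, 19 without ATF1 5hmC replicate 1 and 63 without JUND 5hmC replicate 2. With the score replaced by the median log2 signal of the probes it was 6, and 0 when probes with a half-site were also left out, where the median change over the words was 0.104 log2 units.

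ATTAATTT had the largest change among the words whose arrays did not overlap. It scored 1.98 and 1.98 for CREB1, 2.32 and 3.06 for ATF1 and 3.21 and 0.921 for JUND on 5hmC, against 0.545 and 0.599 for CREB1, 0.710 and 0.531 for ATF1 and 0.662 and 0.854 for JUND on C. All 6 5hmC arrays lay above all 6 C arrays, by an average of 1.60 ± 0.406 (SE; limma adjusted p = 0.0135). AATTTAAT scored 1.82 and 1.01 for CREB1, 3.14 and 1.65 for ATF1 and 1.81 and 1.21 for JUND on 5hmC, against 0.204 and -0.595 for CREB1, 0.925 and 0.286 for ATF1 and 0.646 and 0.184 for JUND on C. It rose by 1.49 ± 0.391 (SE; limma adjusted p = 0.0163), again with no overlap, and its highest probe, printed above, holds none of the half-sites. TTTTTAAA, whose C scores were all below 0, scored 1.03 and 0.741 for CREB1, 1.53 and 0.496 for ATF1 and 1.21 and -0.00548 for JUND on 5hmC, against -0.519 and -0.661 for CREB1, -0.584 and -0.259 for ATF1 and -1.34 and -0.583 for JUND on C. It rose by 1.49 ± 0.312 (SE; limma adjusted p = 0.00301), with every 5hmC array above every C array. The largest changes of the 29, 1.83 for AATTTTTA, 1.72 for AAAATATA and 1.71 for TTTAATTA, came with overlapping arrays and are named after their values were seen. 

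The 29 words were of several makes. More T than A was found in 15 of them, more A than T in 8 and equal numbers in 6, where the 254 words divide into 91, 93 and 70. A run of 4 or more equal bases was found in 15 of the 29 and in 92 of the 254, and AATT in 14 of the 29 and in 79 of the 254. The core that many homeodomain proteins read, TAAT on either strand, was found in 13 of the 29 and in 126 of the 254. TATA, the core of the TATA box, was found in 3 of the 29 and in 68 of the 254. The median averaged change was 0.452 among words with TATA, against 0.669 among those without it.

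Within CREB1, 2 words rose on 5hmC against C, where 1.12% of all tested 8-mers rose, and none fell by limma, where 6.78% fell. The median change was 0.689 over the words, against -0.0616 over all tested 8-mers, and 35 words had an unadjusted p under 0.05, all of them higher on 5hmC. Counts at an unadjusted p are given throughout without the share of all tested 8-mers. They describe direction and do not show an excess. TTTTAATT scored 1.80 and 1.97 on 5hmC, against 0.360 and -0.836 on C, and rose by 2.12 ± 0.637 (SE; limma adjusted p = 0.0444). TAATTAAA scored 2.85 and 2.35 on 5hmC, against 0.965 and 0.634 on C, and rose by 1.80 ± 0.527 (SE; limma adjusted p = 0.0384). In neither word did the arrays overlap, which the naming rule required. Both 5hmC arrays lay above both C arrays for 143 of the 254 words and for 23.6% of all tested 8-mers. Without probes that hold a half-site, the change of TAATTAAA in log2 probe signal was -0.0258. The count of 2 was 0 without CREB1 C replicate 2 or either ATF1 5mC array, 1 without CREB1 C replicate 1, CREB1 5hmC replicate 1 or any 1 array of ATF1 on C or JUND on 5mC, 4 without CREB1 5hmC replicate 2 and 7 without either JUND 5hmC array.

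Within ATF1, 2 words rose on 5hmC against C, where 0.0998% of all tested 8-mers rose, and none fell, where 2.08% fell. The median change was 0.842, against -0.0274 over all tested 8-mers, and at an unadjusted p under 0.05 there were 49 words higher and 1 lower. AAAAATAT scored 2.88 and 1.76 on 5hmC, against -0.158 and 0.470 on C, and rose by 2.16 ± 0.542 (SE; limma adjusted p = 0.0396). TTTAATTT scored 0.839 and 1.18 on 5hmC, against -0.895 and -0.658 on C, and rose by 1.79 ± 0.450 (SE; limma adjusted p = 0.0405). Neither word had overlapping arrays, as the naming rule required, and the C scores of TTTAATTT lay below 0 where its 5hmC scores lay above it. Both 5hmC arrays lay above both C arrays for 138 of the 254 words and for 20.7% of all tested 8-mers. The count of 2 was 0 without any 1 of the 6 ATF1 arrays, of the CREB1 5hmC arrays or of the JUND 5mC arrays, and 4 without either JUND 5hmC array.

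Within JUND, none of the words and no other tested 8-mer passed on 5hmC against C by limma (0% of all). At an unadjusted p under 0.05 there were 20 words higher and 5 lower. The median change of 0.255 over the words was 0.970 without JUND 5hmC replicate 2 and -0.392 without JUND 5hmC replicate 1, and the count was 5 without replicate 1 (1 higher and 4 lower), 2 without replicate 2 (both higher) and 1 without JUND C replicate 2. TTTATTTA had the lowest adjusted p, with 0.948 and 1.12 on 5hmC, against -0.254 and -1.58 on C, a difference of 1.95 ± 0.477 (SE; limma adjusted p = 0.232). Its arrays did not overlap, yet the difference did not pass. Both 5hmC arrays lay above both C arrays for 47 of the 254 words and for 15.5% of all tested 8-mers.

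The 2 modifications were also set against each other. In ATF1, 7 words rose on 5hmC against 5mC, where 0.134% of all tested 8-mers rose, and none fell, where 0.591% fell and 1 word was lower at an unadjusted p under 0.05. The median difference was 1.20 over the words, against -0.0359 over all tested 8-mers. TTTAATTA scored 3.38 and 2.56 on 5hmC, against 0.0901 and -0.170 on 5mC, and rose by 3.01 ± 0.680 (SE; limma adjusted p = 0.0437). TTATTTAA scored 1.93 and 2.64 on 5hmC, against -0.350 and -0.474 on 5mC, and rose by 2.70 ± 0.547 (SE; limma adjusted p = 0.0272). TATTTTTT scored 2.14 and 2.25 on 5hmC, against -0.375 and -0.304 on 5mC, and rose by 2.54 ± 0.585 (SE; limma adjusted p = 0.0481). In these 3 words the 5mC scores lay near or below 0 and the 5hmC scores above all of them, as the naming rule required. Both 5hmC arrays lay above both 5mC arrays for 181 of the 254 words and for 24.6% of all tested 8-mers. The count of 7 was 0 without either ATF1 5mC array or ATF1 5hmC replicate 2, 1 without ATF1 5hmC replicate 1, 2 without either ATF1 C array, 3 without any 1 array of CREB1 on C or on 5hmC, and 26 without either JUND 5hmC array.

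In CREB1 no word passed on 5hmC against 5mC by limma, where 0.952% of all tested 8-mers did. There were 63 words with an unadjusted p under 0.05, all higher on 5hmC, a count that describes direction and does not show an excess. The median difference over the words was 0.935. TTTTATTT came closest, with 0.761 and 0.855 on 5hmC, against -1.19 and -1.26 on 5mC, a difference of 2.03 ± 0.545 (SE; limma adjusted p = 0.0891). Without JUND 5hmC replicate 1, JUND 5hmC replicate 2 or CREB1 5hmC replicate 2, 1 word passed. The median was 0.607 without CREB1 5mC replicate 2.

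In JUND 4 words rose on 5hmC against 5mC, where 0.946% of all tested 8-mers rose, and 1 fell, where 2.16% fell. AAATATTT, a palindrome, scored 2.61 and 2.31 on 5hmC, against -0.0634 and -0.188 on 5mC, and rose by 2.58 ± 0.621 (SE; limma adjusted p = 0.0300). TTTTTATA scored 1.95 and 1.37 on 5hmC, against -0.333 and -1.09 on 5mC, and rose by 2.37 ± 0.527 (SE; limma adjusted p = 0.0213). TTATATAA, another palindrome, scored 1.41 and 0.883 on 5hmC, against -1.47 and -0.490 on 5mC, and rose by 2.13 ± 0.498 (SE; limma adjusted p = 0.0272). These arrays did not overlap, as the naming rule required. Both 5hmC arrays lay above both 5mC arrays for 87 of the 254 words and for 20.2% of all tested 8-mers. ATAATAAA ran the other way, with 1.35 and -0.203 on 5hmC, against 2.96 and 4.10 on 5mC, a change of -2.96 ± 0.782 (SE; limma adjusted p = 0.0441). Without JUND 5hmC replicate 1, 2 words rose and 3 fell. The count of 5 was 0 without JUND 5mC replicate 1, 1 without JUND 5mC replicate 2, 14 without JUND 5hmC replicate 2, and 3 without ATF1 C replicate 1 or any 1 array of ATF1 on 5mC, CREB1 on 5hmC or CREB1 on C.

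On 5mC, averaged over the 3 proteins, 15 of the 254 words fell against C (5.91%), where 10.8% of all tested 8-mers fell, and 2 rose (0.787%), where 9.13% of all rose. The median change was -0.330 over the words, against -0.0286 over all tested 8-mers, and it was above 0 for 22.4% of the words, against 48.3% of all. The 15 had changes below 0 in CREB1 and in ATF1 for all 15 and in JUND for 14, which again follows in part from how they were picked. TTATATAA and TTTATTTA were among the 15 that fell on 5mC and among the 29 that rose on 5hmC, and were picked out after their values were seen. The median over the words was -0.179 without CREB1 5mC replicate 2 and ran to -0.485 without CREB1 5mC replicate 1. The count of 17 that passed was 6 without CREB1 5mC replicate 2, 7 without ATF1 5mC replicate 2 or JUND 5mC replicate 1, and 8 without JUND C replicate 1. It was 9 without ATF1 C replicate 1 or CREB1 C replicate 2, 10 without ATF1 5mC replicate 1 or ATF1 C replicate 2, 27 without JUND 5hmC replicate 1 and 26 without JUND 5hmC replicate 2.

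TATTATTA had the largest fall. It scored 0.301 and -0.819 for CREB1, 0.368 and 0.544 for ATF1 and 0.343 and -0.392 for JUND on 5mC, against 2.70 and 1.67 for CREB1, 2.89 and 1.29 for ATF1 and 4.79 and 3.07 for JUND on C. All 6 5mC arrays lay below all 6 C arrays, a change of -2.68 ± 0.475 (SE; limma adjusted p = 0.000517). On 5hmC it scored 1.46 and 1.45 for CREB1, 2.36 and 2.00 for ATF1 and 2.01 and -0.0987 for JUND. TATTATTA fell more than its reverse complement TAATAATA, which stands on other probes. In the fit of orientations described below, the score of TAATAATA minus that of TATTATTA changed by 2.29 ± 0.373 on 5mC (SE; limma adjusted p = 0.000732). AATATAAA scored 0.414 and -0.909 for CREB1, -0.374 and -0.266 for ATF1 and 0.127 and -0.0209 for JUND on 5mC, against 1.02 and 0.989 for CREB1, 1.40 and 0.516 for ATF1 and 1.84 and 1.31 for JUND on C. It changed by -1.35 ± 0.406 (SE; limma adjusted p = 0.0236). TTTTTATA scored -0.285 and -0.662 for CREB1, -0.484 and -0.514 for ATF1 and -0.333 and -1.09 for JUND on 5mC, against -0.163 and -0.120 for CREB1, 0.365 and 0.647 for ATF1 and 2.09 and 0.639 for JUND on C. It changed by -1.14 ± 0.304 (SE; limma adjusted p = 0.0121). Neither of these words had overlapping arrays. The 2 words that rose on 5mC, ATAATAAA by 2.09 and TAAATTAT by 1.20, are named after their values were seen.

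Single proteins gave few calls on 5mC against C. In CREB1 1 word fell, where 6.21% of all tested 8-mers fell, and none rose, where 2.25% rose. This was TATATTTA, with -0.286 and -0.502 on 5mC, against 1.51 and 2.40 on C, a change of -2.35 ± 0.612 (SE; limma adjusted p = 0.0169). Its highest probe gave 4.02 and 2.95 times the array median on 5mC, against 74.0 and 33.3 times on C. In ATF1 1 word fell, where 2.06% of all tested 8-mers fell, and none rose, where 1.19% rose. This was TTTATTTA, with -0.964 and -1.01 on 5mC, against 0.668 and 1.22 on C, a change of -1.93 ± 0.477 (SE; limma adjusted p = 0.0318). In JUND 2 words fell, where 0.244% of all tested 8-mers fell, and none rose, where 0.799% rose. TATTATTA changed by -3.95 ± 0.822 (SE; limma adjusted p = 0.0282). AATTAAAA, with 0.468 and -0.518 on 5mC, against 2.89 and 2.19 on C, changed by -2.56 ± 0.605 (SE; limma adjusted p = 0.0465). None of the 4 changes had overlapping arrays, as the naming rule required. Both 5mC arrays lay below both C arrays for 28.8% of all tested 8-mers in CREB1, 30.1% in ATF1 and 22.2% in JUND. Among the words this held for 68, 101 and 90. At an unadjusted p under 0.05 no word was higher on 5mC in CREB1, 3 were in ATF1 and 3 in JUND.

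These counts also moved with single arrays. The CREB1 count was 0 without either CREB1 5mC array or CREB1 C replicate 2, and 2 without either JUND 5hmC array. The ATF1 count was 0 without any 1 array of ATF1 on 5mC or C, and 2 without either JUND 5hmC array. The JUND count was 0 without either JUND 5mC array or JUND C replicate 1, 3 without JUND C replicate 2, 6 without JUND 5hmC replicate 1 and 5 without JUND 5hmC replicate 2. It was 1 without CREB1 C, CREB1 5hmC, ATF1 C or ATF1 5mC replicate 1 or 2, or ATF1 5hmC replicate 1.

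Whether the change on modified DNA differed between proteins was tested as an interaction, and no word passed by limma. For CREB1 against ATF1 the count was 0 on 5hmC (0.215% of all tested 8-mers passed), with 4 words at an unadjusted p under 0.05, and 0 on 5mC (0.272%), with 2. For CREB1 against JUND it was 0 on 5hmC (3.06%), with 13, and 0 on 5mC (3.34%), with 9. A p that misses the threshold does not show that the proteins acted alike. For CREB1 against JUND on 5hmC, 10 words passed without JUND 5hmC replicate 1, and 1 passed without CREB1 C replicate 1 or JUND C replicate 2. On 5mC 2 passed without CREB1 5mC replicate 2 and 1 without either JUND 5hmC array.

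On unmodified DNA the proteins were compared directly. CREB1 scored below JUND for 6 words, where 1.31% of all tested 8-mers were lower, and above it for none, where 8.73% were higher and 2 words were at an unadjusted p under 0.05. The median difference was -0.469 over the words, against 0.0616 over all tested 8-mers. AATAAAAA scored 0.645 and -0.803 for CREB1, against 3.12 and 5.06 for JUND, a difference of -4.17 ± 0.915 (SE; limma adjusted p = 0.00407). TAAATTAA scored 1.32 and 0.358 for CREB1, against 6.54 and 2.01 for JUND, a difference of -3.44 ± 1.08 (SE; limma adjusted p = 0.0474). AAATAAAA scored 0.366 and -0.728 for CREB1, against 1.33 and 4.81 for JUND, a difference of -3.25 ± 0.976 (SE; limma adjusted p = 0.0376). The arrays of the 2 proteins did not overlap in any of the 3, although the 2 JUND arrays lay far apart. The naming rule required that there be no overlap. Both CREB1 arrays lay below both JUND arrays for 97 of the 254 words and for 22.7% of all tested 8-mers. All 6 words held at least 5 A, the others being ATAAAAAT, AATTAAAA and AAAATTAA. Without CREB1 C replicate 1, 3 words were lower and 1 was higher. The count was 1 without CREB1 C replicate 2 and 11 without either JUND 5hmC array. The median difference was -0.221 without JUND C replicate 1 and -0.697 without JUND C replicate 2.

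Between ATF1 and JUND 1 word was higher, where 1.83% of all tested 8-mers were, and 1 lower, where 0.292% were. TTTATTTA scored 0.668 and 1.22 for ATF1, against -0.254 and -1.58 for JUND, a difference of 1.86 ± 0.477 (SE; limma adjusted p = 0.0456). ATAAAAAT scored -0.692 and -0.351 for ATF1, against 1.37 and 2.81 for JUND, a difference of -2.61 ± 0.630 (SE; limma adjusted p = 0.0338). Neither word had overlapping arrays, as the naming rule required. Both ATF1 arrays lay above both JUND arrays for 41 of the 254 words and for 26.3% of all tested 8-mers. They lay below both for 63 words and for 21.4% of all. The count of 2 was 0 without any 1 array of ATF1 on 5mC, ATF1 on C or CREB1 on 5hmC, 1 without any 1 array of CREB1 on 5mC or JUND on 5mC or without JUND C replicate 2, and 3 without JUND C replicate 1 or either JUND 5hmC array. Between CREB1 and ATF1 no word passed by limma, where 1.95% of all tested 8-mers did, and 7 were lower in CREB1 at an unadjusted p under 0.05. TTATTATT had the lowest adjusted p, with -0.182 and -0.724 for CREB1, against 1.06 and 0.887 for ATF1, a difference of -1.43 ± 0.546 (SE; limma adjusted p = 0.358). The comparisons between proteins share the C arrays with those against modified DNA.

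The 2 orientations of a word were then compared, in a fit added after the scores had been seen, as the score of the word minus that of its reverse complement. There were 91 pairs in which 1 orientation had more A. For JUND on C the A-richer orientation scored higher in 20 pairs and lower in 4, where 16.8% of all 32225 pairs of 8-mers differed in either direction, and the median difference was 0.519. For CREB1 on C it was higher in 2 and lower in 6 (10.7% of all pairs differed), with a median of -0.0241, and for ATF1 on C higher in 2 and lower in 3 (6.26%), with a median of 0.0330. The 20 JUND pairs became 12 without JUND C replicate 1 and 7 without JUND C replicate 2, and the 4 became 0 without either. Averaged over the proteins, the A-richer orientation was higher in 19 pairs and lower in 14 on 5hmC (36.7% of all pairs differed) and higher in 23 and lower in 8 on 5mC (49.0%), against higher in 18 and lower in 12 on C (34.9%). Among the 91 pairs the difference between orientations changed against C in 3 on 5hmC (4.28% of all pairs of 8-mers) and in 6 on 5mC (17.3%). Among the 27 further pairs with equal numbers of A and T it changed in 0 on 5hmC and in 4 on 5mC. A word and its reverse complement stand on different probes, so orientation and neighbouring bases cannot be told apart.

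Scores were also compared by the number of adenines on the synthesized strand. Among the 37 words with 6 to 8 A the median JUND score was 1.37 ± 1.16 on 5hmC and 0.724 ± 0.534 on 5mC, against 1.47 ± 0.245 on C (SD, n = 2 arrays). Among the 35 words with 0 to 2 A it was 0.611 ± 0.717 on 5hmC and -0.477 ± 0.0367 on 5mC, against 0.124 ± 0.721 on C. For JUND the A-richer words lay higher by more than either SD on 5mC and on C. On 5hmC they lay higher by less than the larger SD. Both sets of words were read on the same 2 arrays. An SD here therefore includes shifts of a whole array and does not measure the spread of the difference between the sets. For ATF1 the median with 6 to 8 A was 1.75 ± 0.0681 on 5hmC and 0.529 ± 0.0373 on 5mC, against 0.677 ± 0.00160 on C. With 0 to 2 A it was 1.27 ± 0.00697 on 5hmC and -0.191 ± 0.0254 on 5mC, against 0.50 ± 0.117 on C, each below its counterpart by more than either SD. For CREB1 the median with 6 to 8 A was 0.767 ± 0.231 on 5hmC and 0.426 ± 0.874 on 5mC, against 0.233 ± 0.571 on C. With 0 to 2 A it was 0.657 ± 0.125 on 5hmC and -0.412 ± 0.284 on 5mC, against 0.0271 ± 0.258 on C. The medians with 6 to 8 A were the higher ones on each kind of DNA, by less than the larger SD. Since the SDs include shifts of a whole array, this does not show that the sets were alike. The homopolymer AAAAAAAA scored 1.63 and 0.488 on 5hmC and 2.66 and 4.47 on 5mC for JUND, against 1.30 and 3.99 on C. For ATF1 it scored 1.64 and 2.63 on 5hmC and 1.74 and 2.14 on 5mC, against 0.109 and -0.797 on C. The ATF1 arrays of C lay below all 4 modified ones, and those of JUND overlapped.

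TTTTTTTT and TTTTTTTA have no z-score used here, and only their probes were read. The 12 probes with TTTTTTTT had a median log2 signal, relative to the median of the array, of 0.138 and -0.0225 on 5hmC and -1.66 and -0.618 on 5mC for CREB1, against -0.789 and -0.467 on C. For ATF1 it was 0.450 and 0.382 on 5hmC and -0.587 and -0.822 on 5mC, against -0.334 and 0.0227 on C. For JUND it was 0.104 and -1.60 on 5hmC and -0.410 and -0.256 on 5mC, against -0.179 and -0.188 on C. The 5hmC arrays lay above the C arrays for CREB1 and ATF1, and JUND 5hmC replicate 2 was the lowest of the JUND arrays. The 16 probes with TTTTTTTA ranged from -0.503 on CREB1 C replicate 1 to 0.492 on ATF1 5hmC replicate 1.

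The alternating words and the palindromes were of mixed behaviour. ATATATAT scored -0.614 and -0.235 on 5hmC and -0.125 and 0.420 on 5mC for ATF1, against -0.228 and -0.489 on C. TATATATA scored -0.260 and -0.149 on 5hmC and 0.161 and 0.558 on 5mC, against 0.845 and 1.11 on C. Unlike most of the words, TATATATA lay lower on 5hmC than on C for ATF1, a difference of -1.18 that did not pass. The 16 palindromes had means over 18 arrays from -0.390 for TTTTAAAA to 1.45 for ATAATTAT, which scored above 0 on every array. Of the 16, AAAATTTT and TTAATTAA and also TTATATAA were among the 29 words that rose on 5hmC. TTATATAA also fell in the averaged change on 5mC and rose on 5hmC against 5mC in ATF1 and in JUND, and AAATATTT rose on 5hmC against 5mC in JUND. Their median averaged change was 0.411 on 5hmC and -0.301 on 5mC. By longest run of 1 base, the median averaged change on 5hmC was 0.453 for runs of 2 or less (68 words, 7 rose), 0.650 for 3 (94 words, 7 rose), 0.509 for 4 (54 words, 8 rose) and 0.790 for 5 or more (38 words, 7 rose).

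The averaged upward shift on 5hmC went with the other bases of an 8-mer. The median averaged change was 0.624 over the words of adenine and thymine, 0.231 over the 6302 8-mers with G but no C on the synthesized strand, 0.0152 over the 6173 with C but no G and 0.0682 over the 245 of G and C only. It was above 0 for 88.6%, 68.8%, 51.3% and 58.8% of these sets. By number of C on the synthesized strand, from none to 5, the median was 0.242, 0.0563, -0.0600, -0.121, -0.133 and -0.115. In CREB1 the medians were 0.386, 0.0706, -0.133, -0.230, -0.256 and -0.229 and in ATF1 0.398, 0.0806, -0.0866, -0.192, -0.223 and -0.197. JUND ran the other way, with -0.0754, -0.0343, -0.00160, 0.0181, 0.0531 and 0.0949. On 5mC the averaged order turned, with -0.277, -0.182, -0.0162, 0.137, 0.278 and 0.288. The 171 8-mers with 6 C left both orders, at 0.154 on 5hmC and -0.330 on 5mC. Those with 7 C, only 9 in number, lay much further off, at 2.60 on 5hmC and -11.5 on 5mC. In JUND alone the words had a median change of 0.255 on 5hmC, and the 8-mers with G but no C one of -0.0907.

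Probes were compared by their number of C as well. Those that held a word had 1 to 16 C on the synthesized strand, with a mean of 6.80, against 8.51 for other probes. Over all probes with 0 to 3, 4 or 5, 6 or 7, 8 or 9, 10 or 11 and 12 or more C, the median change of the CREB1 signal on 5hmC against C was 0.337, 0.0737, -0.0173, -0.0987, -0.199 and -0.277 log2 units. Over the same steps ATF1 gave 0.337, 0.0992, -0.0352, -0.152, -0.254 and -0.345, and JUND gave 0.0913, 0.0414, -0.0150, -0.0975, -0.198 and -0.273. All 3 proteins thus ran downward with the number of C on the probes, which for JUND is opposite to the order of its scores. Each signal is relative to the median of its array, so these are shifts within an array and not changes of total binding. The 5hmC arrays also stood less far above background than most others, and the part of that in the shifts was not tested.

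Word-holding probes were then set against other probes with the same number of C, in 11 strata from 2 to 12 C with at least 20 word-holding probes each. Each array was taken against the mean of the C arrays of its protein. For CREB1 on 5hmC the word-holding probes differed by 0.336 and 0.106 log2 units before matching and by 0.225 and 0.0584 after it, above 0 in 11 and 7 of the 11 strata. For ATF1 on 5hmC they differed by 0.231 and 0.213 before matching and by 0.137 and 0.125 after it, above 0 in 9 of the 11 strata on each array. For JUND on 5hmC the matched differences were 0.0867 and -0.149. On 5mC they were 0.136 and -0.109 for CREB1, -0.0396 and -0.0299 for ATF1 and -0.0235 and 0.0243 for JUND. The sign was the same on both arrays for CREB1 on 5hmC and for ATF1 on both modifications, and differed between arrays in the other 3 groups.

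Probes with a half-site across the edge of the word differed between kinds of DNA in ways that depended on the half-site. In the 31 probes with ACGT across the edge the median CREB1 signal was 0.464 ± 0.110 on 5hmC and 0.494 ± 0.101 on 5mC, against 1.63 ± 0.194 on C (log2 relative to the median of the array, SD, n = 2 arrays). The ATF1 signal there was 0.592 ± 0.132 on 5hmC and 0.466 ± 0.0458 on 5mC, against 1.32 ± 0.100 on C. Both differences exceed the spread between arrays. In the 64 probes with GCAA across the edge CREB1 gave 0.899 ± 0.416 on 5hmC and 1.31 ± 0.678 on 5mC, against 0.317 ± 0.0364 on C. ATF1 gave 0.888 ± 0.124 on 5hmC and 0.942 ± 0.000377 on 5mC, against 0.381 ± 0.0566 on C. The CREB1 5mC arrays lay far apart with GCAA. For both proteins C thus had the highest mean with ACGT and the lowest with GCAA. The 61 probes with TTGC across the edge, the reverse complement of GCAA, did not share this in ATF1, with 0.183 ± 0.251 on 5hmC and -0.0519 ± 0.0925 on 5mC, against -0.0334 ± 0.0356 on C, differences within the spread between arrays. CREB1 gave 0.137 ± 0.123 on 5hmC and 0.114 ± 0.442 on 5mC, against -0.214 ± 0.133 on C there, where the 5mC arrays lay far apart. In the 51 probes with GTCA across the edge CREB1 gave 0.227 ± 0.0199 on 5hmC and 0.251 ± 0.235 on 5mC, against 1.32 ± 0.509 on C. ATF1 gave 0.264 ± 0.109 on 5hmC and 0.0226 ± 0.0319 on 5mC, against 0.961 ± 0.00200 on C. In the 38 probes with TGAC across the edge CREB1 gave 0.590 ± 0.0151 on 5hmC and 0.368 ± 0.340 on 5mC, against 1.09 ± 0.0102 on C. ATF1 gave 0.682 ± 0.0507 on 5hmC and 0.218 ± 0.116 on 5mC, against 0.805 ± 0.0524 on C. Both half-sites thus had lower means on modified DNA for both proteins. For JUND the probes with ACGT across the edge gave 0.116 ± 0.118 on 5hmC and 0.412 ± 0.134 on 5mC, against 0.139 ± 0.174 on C. Those with GCAA gave 0.428 ± 0.0306 on 5hmC and 0.421 ± 0.0686 on 5mC, against 0.263 ± 0.145 on C. The median change of the JUND signal on 5hmC against C in these GCAA probes was -0.0921 log2 units, opposite in sign to the difference of the levels.

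Probes with a word and none of the 5 half-sites were 1273 in number. CREB1 gave 0.118 ± 0.126 there on 5hmC and -0.207 ± 0.139 on 5mC, against -0.114 ± 0.0391 on C. ATF1 gave 0.278 ± 0.0183 on 5hmC and -0.0986 ± 0.0204 on 5mC, against -0.0176 ± 0.00980 on C. JUND gave 0.0755 ± 0.107 on 5hmC and -0.00940 ± 0.100 on 5mC, against 0.0565 ± 0.00547 on C. For ATF1 the 5hmC level lay above the C level by more than the spread between arrays, and for JUND the 3 levels lay within it. The median change on 5hmC against C in the probes without a half-site was 0.257 log2 units for CREB1, 0.217 for ATF1 and -0.0627 for JUND. In the 819 probes with a half-site elsewhere it was -0.0259, -0.0609 and -0.0557. CREB1 levels there were 0.396 ± 0.178 on 5hmC, against 0.321 ± 0.0898 on C. ATF1 levels there were 0.460 ± 0.0303 on 5hmC, against 0.389 ± 0.00967 on C.

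The base next to the word gave a smaller contrast. With C just after the word the median change on 5hmC against C was 0.0307 for CREB1 and 0.0276 for ATF1, over 1031 probes. With A, G or T there it was 0.190, 0.210 and 0.206 for CREB1, and 0.175, 0.0905 and 0.215 for ATF1. With C just before the word CREB1 changed by 0.105, and with A, G or T by 0.148, 0.160 and 0.173. ATF1 changed by 0.0805 with C before the word, and by 0.182, 0.0912 and 0.185 with A, G or T, so C and G lay close together. JUND changed by -0.127 with C after the word, and by -0.0372, -0.0247 and -0.0415 with A, G or T. With C before the word JUND changed by -0.0559, and with A, G or T by -0.0218, -0.0433 and -0.0179. A probe that holds several words can be counted under several bases, so these sets overlap.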

How the data were processed

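The deposited table gives 1 z-score per 8-mer and array, a score that the authors computed from their probe signals; the scaling is not stated in the labels or headers. The deposited probe files give, per the file headers, the median intensity of each spot and of its local background. Per the labels, primer extension with C, 5mC or 5hmC gave double-stranded probes modified on 1 strand, and an Alexa Fluor dye gave the signal. The 8-mers and the lists used here were chosen with earlier results of these data known. Z-scores of all 18 arrays were fitted in limma 3.58.1 (R 4.3.3) with 1 mean per group and a trended empirical Bayes variance, on 9 residual and 10.7 prior degrees of freedom. Tests were two-sided, with Benjamini-Hochberg adjustment over the 65121 8-mers held by at least 1 probe and a threshold of 0.05, and the same adjustment over 32225 pairs for orientation. The fit was tested on simulated data. Changes and SEs are in z-score units unless log2 is named. For probes, the background-subtracted signal was floored at 50, and log2 values were taken relative to the median of the array. Nothing states whether the 2 arrays of a group used separate protein preparations, and precision is limited by 2 arrays per group and by signal over background. For each contrast the text names up to 3 words with the largest rise and up to 3 with the largest fall among those that passed with no overlap between arrays, and otherwise the word with the lowest adjusted p. For each group it names the 2 words with the highest mean, and it adds the homopolymers, the alternating words and the palindromes. Alternatives were a replicate block, no trend, array weights, fewer arrays, quantile or robust scaling, averaged reverse complements, other probe minimums, log2 probe signals (also with normexp correction, offset 50, or without half-site probes), other score thresholds of 3 and 6, and each array left out.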

Additional observations from a re-analysis of the deposited data

Results flagged for a closer look

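For TAATTAAA the arrays of CREB1 and ATF1, which are close relatives, lay in opposite directions on 5hmC against C. In CREB1 it scored 2.85 and 2.35 on 5hmC, against 0.965 and 0.634 on C, a change of 1.80 that passed the test. In ATF1 it scored 0.583 and 0.661 on 5hmC, against 0.892 and 0.984 on C, a change of -0.316 (limma adjusted p = 0.859). The difference between the proteins was tested as an interaction and did not pass: it was 2.12 ± 0.746 (SE; limma adjusted p = 0.567), with an unadjusted limma p of 0.0102.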

How the results depend on the processing

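Counts are of the 254 words called by limma and are given as the count reported, then its value under each alternative that moved it by more than 1.5 times. The cause was not tested. For CREB1 on 5hmC against C, 2 became 7 with array weights, 5 with only the arrays of that protein, 1 with quantile normalization or with log2 probe signals with or without normexp correction, and 0 without half-site probes. For ATF1 on 5hmC against C, 2 became 1 with no trend or averaged reverse complements, 7 with only its arrays, 9 with quantile normalization, and 0 with log2 signals or without half-site probes. For JUND on 5hmC against C, 0 became 1 with quantile normalization. For CREB1 on 5hmC against 5mC, 0 became 1 with no trend, array weights or normexp. For ATF1 on 5hmC against 5mC, 7 became 4 with no trend, 26 with array weights, 32 with only its arrays, 30 with quantile normalization, 1 with averaged reverse complements, 46 with normexp, and 0 with log2 signals or without half-site probes. For JUND on 5hmC against 5mC, 5 became 12 with quantile normalization, 17 with normexp, and 0 with array weights, only its arrays, log2 signals or no half-site probes.

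For CREB1 on 5mC against C, 1 became 2 with the replicate block, no trend, only its arrays, log2 signals or normexp, and 0 with quantile normalization or without half-site probes. For ATF1 on 5mC against C, 1 became 16 with array weights, 5 with only its arrays, 13 with normexp, and 0 with averaged reverse complements or without half-site probes. For JUND on 5mC against C, 2 became 1 with no trend or no probe filter, 4 with quantile normalization, 5 with normexp, and 0 with only its arrays, averaged reverse complements, log2 signals or no half-site probes. The averaged 5hmC count of 29 became 18 with array weights, 19 with averaged reverse complements, 6 with log2 signals, 12 with normexp and 0 without half-site probes. The averaged 5mC count of 17 became 26 with array weights, 9 with quantile normalization or averaged reverse complements, 52 with normexp and 3 without half-site probes. For CREB1 against JUND on C, 6 became 3 with averaged reverse complements, and 0 with log2 signals or without half-site probes. For ATF1 against JUND on C, 2 became 1 with the replicate block, only their arrays or normexp, 4 with quantile normalization, and 0 with averaged reverse complements, log2 signals or no half-site probes. The interaction of CREB1 and JUND on 5mC became 1 with the replicate block or averaged reverse complements, from 0. The replicate numbers were not treated as a pairing, since deviations of arrays with the same number correlated with r from -0.166 to 0.636 over all 8-mers.

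With a score threshold of 3 the group means gave 2 words for CREB1 on 5hmC, 8 for ATF1 on 5hmC, 2 for JUND on 5hmC, 6 for JUND on 5mC and 6 for JUND on C, and with 6 they gave 0 for JUND on 5mC and on C. Over fits without 1 array the counts ran from 0 to 7 in CREB1, 0 to 4 in ATF1 and 0 to 5 in JUND for 5hmC against C. They ran from 0 to 1, 0 to 26 and 0 to 14 for 5hmC against 5mC, and from 0 to 2, 0 to 2 and 0 to 6 for 5mC against C. The averaged counts ran from 11 to 63 on 5hmC and from 6 to 27 on 5mC. Between proteins on C they ran from 1 to 11 for CREB1 and JUND and from 0 to 3 for ATF1 and JUND. The interactions of CREB1 and JUND ran from 0 to 10 on 5hmC and 0 to 2 on 5mC. Counts of a group mean of at least 4 ran from 0 to 2 for CREB1 and for ATF1 on 5hmC, 0 to 4 for JUND on 5hmC, 2 to 7 for JUND on 5mC and were 4 for JUND on C. Pairs with the A-richer orientation higher ran from 0 to 2 in CREB1, 0 to 3 in ATF1 and 7 to 22 in JUND, and lower from 0 to 6, 0 to 4 and 0 to 7.

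For the words named with a test, 239 of 342 values under other processing and 355 of 522 without 1 array kept their direction and their side of the threshold. The single value that changed sign was that of TAATTAAA in CREB1 on 5hmC against C, at -0.0258 log2 units (limma adjusted p = 0.987) without half-site probes. Fits with only the arrays of the proteins compared do not apply to the averaged changes. Signal over background, at its lowest 1.55 times on a 5hmC array, and 2 arrays per group limit what these scores can show.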
